A study of Mus musculus with 16 samples.

Results

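The expression of 8 genes of cholesterol synthesis and its control was examined in DN3 thymocytes of Lmo2-transgenic mice. They were the rows of both count tables whose symbol is Hmgcs1, Idi1, Fdps, Fdft1, Sqle, Lss, Srebf2 or Insig1, which are 8 of the 22114 protein-coding genes listed. DN3 thymocytes are immature T-cell precursors of the thymus, and in mice that carry the CD2-Lmo2 transgene (Lmo2Tg), which drives the Lmo2 oncogene from CD2 sequences in T cells, they hold the pre-leukemic stem cells. One experiment compared total DN3 cells of wild-type mice (3 libraries), mice that lack p21 (p21-/-, 2 libraries), Lmo2Tg mice (2 libraries) and Lmo2Tg;p21-/- mice (2 libraries). The other compared DN3 cells of TetOP-H2B-GFP KI/+;Lmo2Tg mice (H2B-GFP;Lmo2Tg), all of which carried the transgene. These mice were given doxycycline for 6 weeks, which switched on a histone-GFP fusion that labels chromatin, and then chased for 2 weeks. Cells that divided little kept the label (GFPhi, 3 libraries) and cells that divided often diluted it (GFPlo, 3 libraries). The labels give the strain as C57BL/6 and the methods a C57BL/6J background. The paper describes the sequenced samples as pooled and the GFP libraries as coming from 3 independent cohorts of mice that were 2 months old. It gives the wild-type, p21-/-, Lmo2Tg and Lmo2Tg;p21-/- mice as 6 weeks old. Its methods give pools of 3 to 5 mice for global expression in a passage on arrays, and the number of mice in a sequenced library is not given in the sources used here.

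Cholesterol is built from acetyl-CoA. The mevalonate enzymes make isoprenoid units and farnesyl pyrophosphate, and the sterol enzymes turn these into squalene, lanosterol and cholesterol. When sterols run low in the endoplasmic reticulum, Scap carries the precursor of the transcription factor SREBP-2, the product of Srebf2, to the Golgi, where it is cut and released to switch on genes of sterol synthesis and uptake. Insig1 holds Scap back when sterols are plentiful and is itself a target of SREBP. Dividing lymphocytes need sterols for new membranes, and most genes of the pathway respond to SREBP-2 together.

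SREBP-2 binds sterol regulatory elements close to the start site, so the promoters were searched on both strands for TCACNCCAC, the letters of such an element, over the 250 bases before the RefSeq start (GRCm38.p6). The table of RefSeq promoters used here matched 5 of the 8 genes. Hmgcs1 had an exact match, and Hmgcs1, Srebf2 and Insig1 had a match with at most 1 mismatch. Over all 32851 promoters in the table, 1.05% held an exact match and 20.7% a match with at most 1 mismatch. Lss and Idi1 had no match in this window, and Sqle, Fdft1 and Fdps were not in the table. The promoters with a match are shown with the matching letters in capitals, 5′ to 3′ on the plus strand, at chr13:119690101-119690350 for Hmgcs1, chr15:82147019-82147268 for Srebf2 and chr5:28071162-28071411 for Insig1.
Hmgcs1: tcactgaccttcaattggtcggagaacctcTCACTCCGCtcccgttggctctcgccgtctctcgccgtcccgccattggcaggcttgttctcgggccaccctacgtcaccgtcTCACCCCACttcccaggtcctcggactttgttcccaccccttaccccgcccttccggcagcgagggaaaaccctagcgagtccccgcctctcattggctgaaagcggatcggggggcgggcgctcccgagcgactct
Srebf2: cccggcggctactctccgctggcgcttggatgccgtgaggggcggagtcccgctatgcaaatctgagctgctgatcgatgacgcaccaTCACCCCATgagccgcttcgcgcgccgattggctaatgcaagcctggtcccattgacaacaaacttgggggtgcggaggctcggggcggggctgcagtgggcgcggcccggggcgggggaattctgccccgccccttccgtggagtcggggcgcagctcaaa
Insig1: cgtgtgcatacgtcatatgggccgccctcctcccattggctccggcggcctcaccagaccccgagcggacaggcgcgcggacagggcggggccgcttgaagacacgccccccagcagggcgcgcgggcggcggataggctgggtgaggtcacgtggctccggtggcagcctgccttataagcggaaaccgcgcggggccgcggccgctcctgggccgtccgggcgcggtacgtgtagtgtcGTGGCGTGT
In Hmgcs1 the exact match, TCACCCCAC, began 137 bases before the start, and TCACTCCGC, with 1 mismatch, began 220 bases before it. In Srebf2 the match was TCACCCCAT, beginning 162 bases before the start. In Insig1 the match lay on the minus strand directly before the start and read ACACGCCAC. All 5 promoters also held CCAAT on the minus strand, as 33.8% of all promoters did on either strand, and GGGCGG, a letter run bound by Sp1, as 32.7% did. None of these motifs overlapped the capitals. A match is a description of letters, and no binding was measured.

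Total counts ranged from 13864936 to 16837667 per library in the genotype experiment and from 26861394 to 31106213 in the GFP experiment. Values per gene are TMM-normalized CPM, the count of a gene relative to the scaled total of its library. Cdkn1a, which encodes p21, stood at 36.5 to 49.0 CPM in wild-type and 26.3 to 32.8 CPM in Lmo2Tg libraries, at 14.3 and 17.7 CPM in p21-/- and at 4.35 and 3.50 CPM in Lmo2Tg;p21-/- libraries, so reads of the gene remained in both deficient groups. In the same experiment Lmo2 had 1 to 5 counts in libraries without the transgene and from 41.4 to 107 CPM in those with it. The libraries carried the DN3 markers Il2ra, Ptcra and Rag1 in every group, and of 8 markers of thymic stroma, Krt5, Krt8, Psmb11 and Col1a2 had at most 3 counts in any library and Col1a1 at most 2.56 CPM, while Pdgfrb (66.9 to 702 CPM), Pecam1 (137 to 263 CPM) and Epcam (13.9 to 79.5 CPM) were present throughout. GFPhi replicate 3 stood apart from the other GFPhi libraries, with 285 CPM of Lmo2 against 29.5 and 53.8 CPM and 6.56 CPM of Cdkn1a against 29.9 and 35.8 CPM, so results of the GFP experiment are also given without it.

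All 8 genes passed the filter on low counts in both experiments. To describe levels across genes, CPM was divided by the length of each gene's annotated exons, such as 10787 bases for Lss and 4208 for Fdps. The length of the transcripts present in these cells was not measured, so the order of the genes depends on the annotation. On this scale wild-type DN3 cells held 51.4 ± 0.963 CPM per kb of Srebf2 (SD, n = 3) and 33.2 ± 1.27 of Hmgcs1. Sqle stood at 18.9 ± 1.35 CPM per kb, Insig1 at 14.9 ± 0.903 and Idi1 at 10.8 ± 0.104. Fdft1 stood at 10.1 ± 0.541 CPM per kb, Lss at 4.81 ± 0.181 and Fdps at 1.37 ± 0.166. Idi1 and Fdft1 were the neighbours in this order that did not differ beyond their spread. The level of Fdps has to be read with care, since its exons overlap those of Gm43738 on the same strand, which is not a row of the tables. Exons of Hmgcs1, Idi1, Fdft1 and Lss overlap an antisense gene, and for Fdft1 this is the abundant Ctsb.

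The clearest difference in these genes was between DN3 cells with and without the Lmo2 transgene. All 6 synthesis enzymes fell, with a change in mean CPM from wild-type to Lmo2Tg cells between -28.8% (Idi1) and -43.8% (Fdps), while Srebf2 and Insig1 were not called. By the quasi-likelihood test of edgeR, with p adjusted after Benjamini and Hochberg, 6 of the 8 genes passed an adjusted p of 0.05, all of them lower, where 36.6% of the 11840 genes tested passed in either direction and 16.9% passed as lower. The median log2 fold change of the 8 genes was -0.63, beside -0.01 over all genes tested. In bulk RNA, fewer cells of a type and less RNA per cell cannot be told apart.

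**Figure D1:**
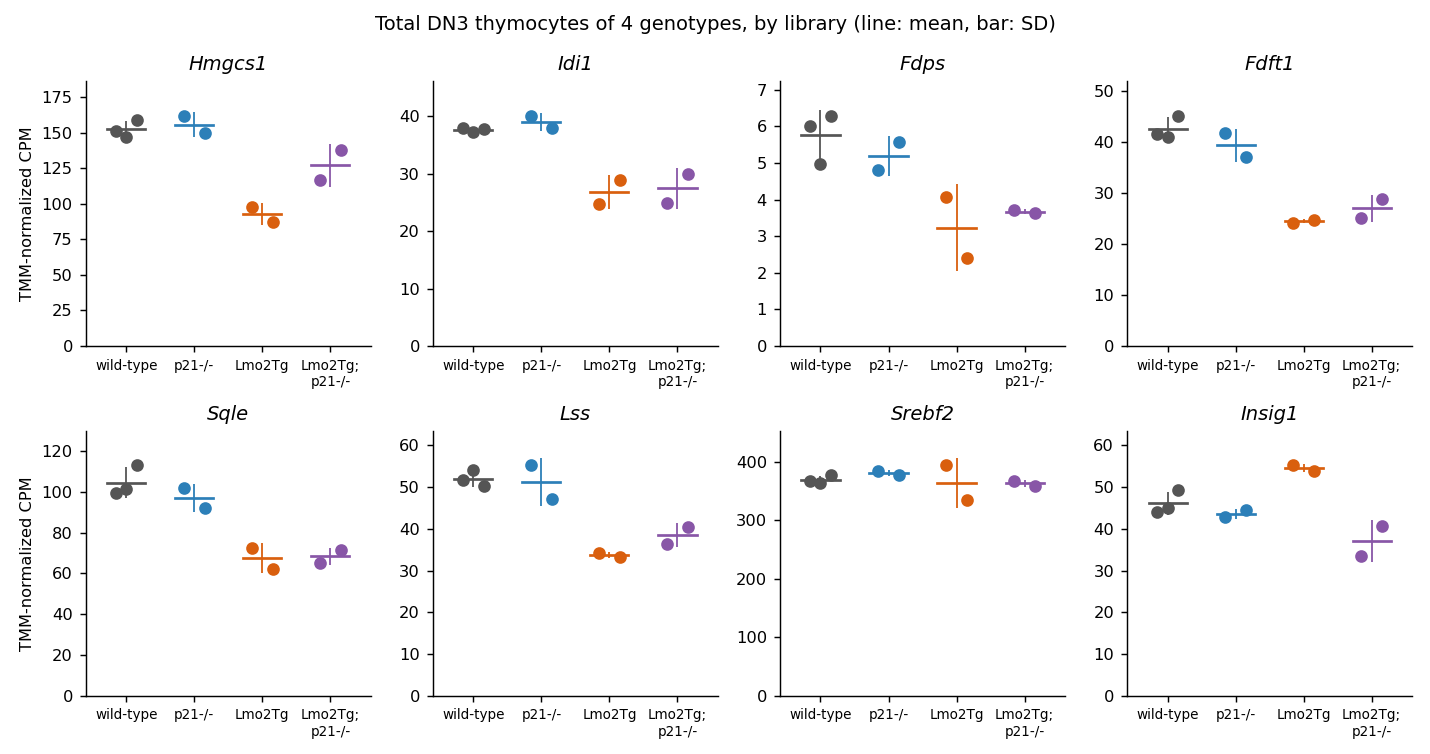
TMM-normalized CPM (y axis, linear from 0, own scale for each gene) of the 8 genes in total DN3 cells of wild-type, p21-/-, Lmo2Tg and Lmo2Tg;p21-/- mice (x axis). Points are libraries, lines are means and bars are SD. The 6 enzymes lie lower in both transgenic groups than in wild-type and p21-/- cells, Srebf2 lies between 334 and 394 CPM in all libraries, and Insig1 is highest in Lmo2Tg (54.0 and 55.2 CPM) and lowest in Lmo2Tg;p21-/- cells (33.5 and 40.8 CPM).

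Of the mevalonate enzymes, Hmgcs1 (ENSMUSG00000093930, chromosome 13 from 119690379 to 119708260) makes HMG-CoA, the precursor of mevalonate. It stood at 151, 147 and 159 CPM in the wild-type libraries, 162 and 149 CPM in p21-/-, 98.1 and 87.3 CPM in Lmo2Tg and 116 and 138 CPM in Lmo2Tg;p21-/- libraries. Both transgenic groups lay below all 5 libraries without the transgene, and Lmo2Tg lay below Lmo2Tg;p21-/-. The log2 fold change of Lmo2Tg against wild-type was -0.72 with a standard error (SE) of 0.09 (adjusted p = 0.00021).

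Idi1 (ENSMUSG00000058258, chromosome 13 from 8885501 to 8892451) interconverts the isoprenoid units from which farnesyl pyrophosphate is assembled. Its values were 38.1, 37.3 and 37.8 CPM in wild-type, 40.2 and 37.9 CPM in p21-/-, 24.7 and 29.0 CPM in Lmo2Tg and 24.9 and 30.0 CPM in Lmo2Tg;p21-/- libraries. The transgenic groups overlapped each other and lay below the others. Its log2 fold change in Lmo2Tg against wild-type was -0.49 (SE 0.11, adjusted p = 0.0049), and the call was lost without Lmo2Tg library A (-0.38, adjusted p = 0.054). Exons of Idi1 overlap those of the antisense gene Gm48574, whose part in these values was not tested. In the GFP experiment, whose table names another counting setting, Idi1 stood at only 3.53 to 4.71 CPM.

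Fdps (ENSMUSG00000059743, chromosome 3 from 89093588 to 89101959), the farnesyl pyrophosphate synthase, had the fewest reads of the 8 genes. It stood at 6.01, 4.96 and 6.29 CPM in wild-type, 4.81 and 5.57 CPM in p21-/-, 4.07 and 2.39 CPM in Lmo2Tg and 3.71 and 3.62 CPM in Lmo2Tg;p21-/- libraries, from 35 to 104 counts each. The transgenic libraries were again the lowest. Its log2 fold change in Lmo2Tg against wild-type was -0.84 with the widest interval of the 8 genes, from -1.37 to -0.31 (adjusted p = 0.020). The call was lost without wild-type replicate 1 (adjusted p = 0.052), without wild-type replicate 3 (0.054) and without Lmo2Tg library B (0.16, log2 fold change -0.50).

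Of the sterol enzymes, Fdft1 (ENSMUSG00000021273, chromosome 14 from 63145150 to 63179578) is the squalene synthase that commits farnesyl pyrophosphate to sterols. It measured 41.5, 40.9 and 45.1 CPM in wild-type, 41.6 and 37.0 CPM in p21-/-, 24.2 and 24.8 CPM in Lmo2Tg and 25.1 and 28.7 CPM in Lmo2Tg;p21-/- libraries. Lmo2Tg cells held 24.5 ± 0.403 CPM (SD, n = 2) against 42.5 ± 2.29 CPM (SD, n = 3) in wild-type cells, and the log2 fold change was -0.80 (SE 0.10, adjusted p = 0.00016). The antisense neighbour Ctsb, whose reads cannot be told apart from those of Fdft1 where their exons overlap, had 2677 to 3125 counts in wild-type and 1899 and 2003 counts in Lmo2Tg libraries, and its part in the value was not tested.

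Sqle (ENSMUSG00000022351, chromosome 15 from 59315077 to 59331192), the squalene epoxidase and an oxygen-dependent control point of the pathway, measured 99.3, 101 and 113 CPM in wild-type, 102 and 92.1 CPM in p21-/-, 72.7 and 62.2 CPM in Lmo2Tg and 65.4 and 71.4 CPM in Lmo2Tg;p21-/- libraries. The transgenic groups overlapped each other and lay below the others. Its log2 fold change in Lmo2Tg against wild-type was -0.63 (SE 0.10, adjusted p = 0.00064).

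Lss (ENSMUSG00000033105, chromosome 10 from 76531588 to 76557138) closes the ring system to give lanosterol. It stood at 51.6, 54.0 and 50.1 CPM in wild-type, 55.2 and 47.2 CPM in p21-/-, 34.2 and 33.2 CPM in Lmo2Tg and 36.4 and 40.5 CPM in Lmo2Tg;p21-/- libraries. Lmo2Tg was the lowest group, and the log2 fold change against wild-type was -0.62 (SE 0.09, adjusted p = 0.00054). The calls of Hmgcs1, Fdft1, Sqle and Lss held without each library in turn.

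The regulators were not called. Srebf2 (ENSMUSG00000022463, chromosome 15 from 82147181 to 82205379) stood at 367, 364 and 377 CPM in wild-type, 385 and 378 CPM in p21-/-, 394 and 334 CPM in Lmo2Tg and 368 and 359 CPM in Lmo2Tg;p21-/- libraries. The Lmo2Tg libraries spanned all the others. Its log2 fold change against wild-type was -0.02, with a 95% interval from -0.20 to 0.16 (adjusted p = 0.87). Counts measure its mRNA and say nothing of the cleavage of SREBP-2.

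Insig1 (ENSMUSG00000045294, chromosome 5 from 28071363 to 28078662) measured 44.0, 45.1 and 49.3 CPM in wild-type, 42.8 and 44.5 CPM in p21-/-, 55.2 and 54.0 CPM in Lmo2Tg and 33.5 and 40.8 CPM in Lmo2Tg;p21-/- libraries. All Lmo2Tg libraries lay above all others, and all Lmo2Tg;p21-/- libraries below all others. The log2 fold change of Lmo2Tg against wild-type was 0.24, with an interval from 0.03 to 0.45, and did not pass (adjusted p = 0.067), although it did without wild-type replicate 3 (adjusted p = 0.044).

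Most of the other enzymes of the pathway, taken from lists of its known genes, were lower in Lmo2Tg cells too. Of 7 mevalonate enzymes, the 3 described included, 6 were called lower and none higher in Lmo2Tg against wild-type, with a median log2 fold change of -0.53. Beside the 3 described these were Acat2, the thiolase that makes acetoacetyl-CoA (-0.74, adjusted p = 0.00087), Mvk, the mevalonate kinase (-0.53, adjusted p = 0.015), and Mvd, the decarboxylase (-0.41, adjusted p = 0.021).

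Of 13 sterol enzymes, 11 were called lower and 1 higher, with a median of -0.53. Outside the 8 genes, Msmo1, a sterol methyl oxidase, had the largest log2 fold change (-1.29, adjusted p = 0.00023), followed by Dhcr7, which makes cholesterol from its last precursor (-0.82, adjusted p = 6.1e-05), Tm7sf2, a sterol reductase (-0.72, adjusted p = 0.0012), and Nsdhl, a sterol dehydrogenase (-0.53, adjusted p = 0.0037). The gene that rose was Lbr (0.38, adjusted p = 0.0017), which shares the reductase activity of Tm7sf2 but is also the lamin B receptor of the nuclear envelope. Without the 6 enzymes among the 8 genes, 11 of the other 14 synthesis enzymes were called lower.

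**Figure D2:**
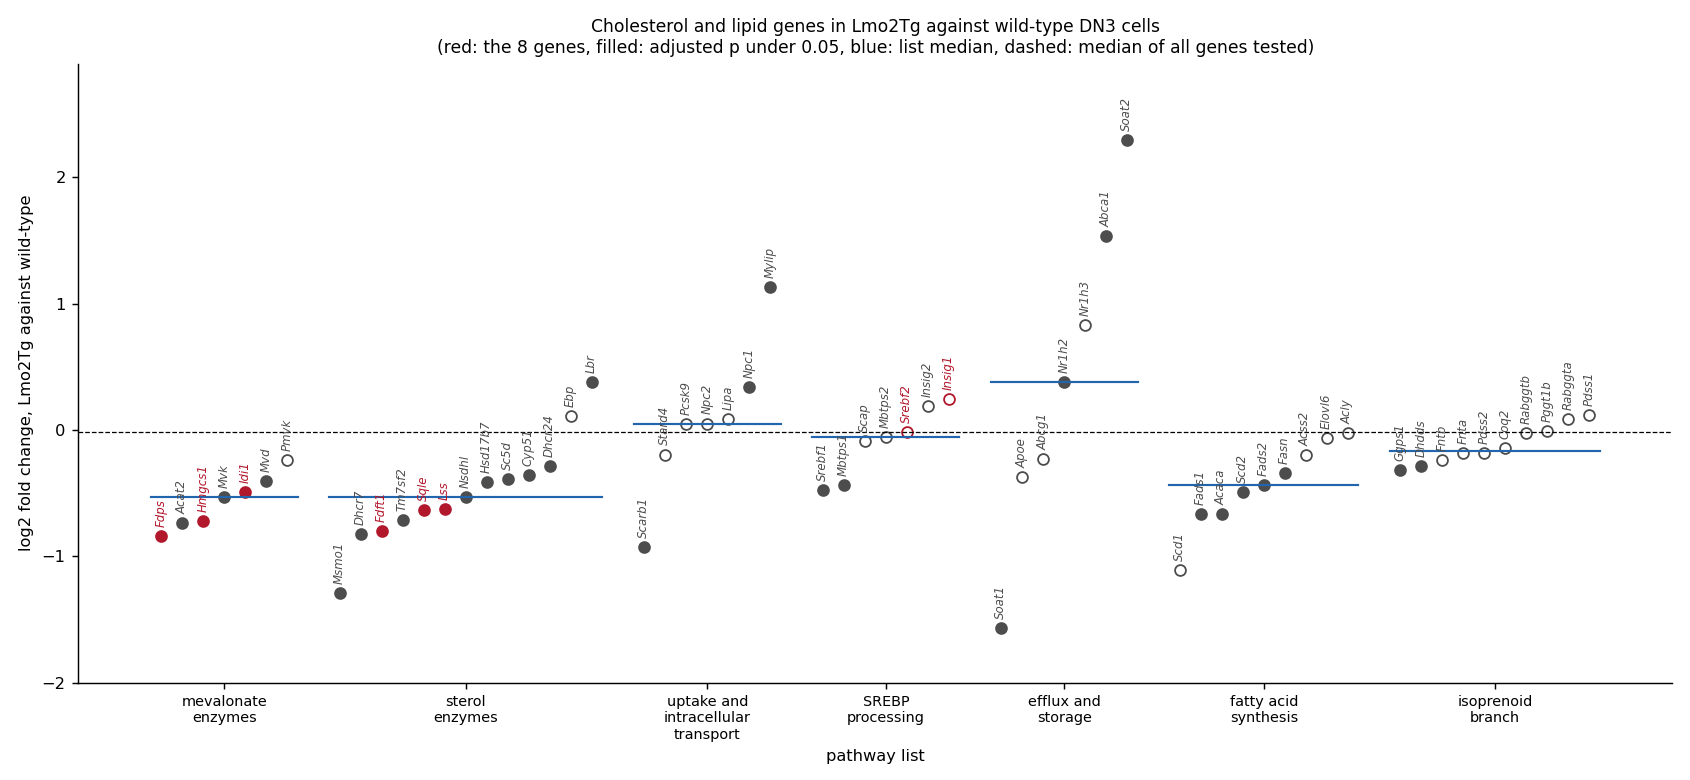
Log2 fold change of Lmo2Tg against wild-type (y axis) for each gene of 7 cholesterol and lipid lists (x axis), sorted within a list. Red marks the 8 genes, filled points passed an adjusted p of 0.05, blue lines are list medians and the dashed line is the median of all genes tested (-0.01). Nearly all synthesis enzymes lie below the dashed line. The efflux and storage list holds both the largest fall (Soat1 -1.57) and the largest rises (Soat2 2.30, Abca1 1.53).

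Of 7 genes of uptake and intracellular transport 2 were called higher and 1 lower, as the plot of the pathway lists shows, a share close to the 36.6% of all genes tested. Scarb1, a receptor of HDL, fell by 0.93 on the log2 scale (adjusted p = 1.8e-05). Mylip, a ubiquitin ligase that limits cholesterol uptake, rose by 1.13 (adjusted p = 4.7e-05), and Npc1, which exports cholesterol from lysosomes, by 0.34 (adjusted p = 0.022).

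In the list of efflux and storage genes, 3 of 7 genes tested were called higher and 1 lower, beside the same 36.6% of all genes. Abca1, the cholesterol exporter, stood at 26.7 and 29.2 CPM in Lmo2Tg and between 8.59 and 11.5 CPM in wild-type libraries (log2 fold change 1.53, adjusted p = 3.0e-05). Nr1h2, the oxysterol receptor LXR-beta, rose by 0.38 (adjusted p = 0.0032). Of the enzymes that esterify cholesterol for storage, Soat1 fell by 1.57 (adjusted p = 9.6e-06) and Soat2 rose by 2.30 (adjusted p = 0.00043), Soat2 from 0.726 to 1.72 CPM in wild-type to 5.20 and 7.25 CPM in Lmo2Tg libraries. Of the 7 genes of SREBP processing, Srebf1 (-0.47, adjusted p = 0.0017), which encodes the SREBP of fatty acid synthesis, and Mbtps1 (-0.43, adjusted p = 0.00098), the protease that makes the first cut in SREBP, were called lower. These were the only calls in the list, a share not above the 36.6% of all genes, and its median was -0.05.

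Markers of the DN3 stage moved with these genes. In Lmo2Tg against wild-type, 7 of 8 DN3 markers were called lower and their summed level was 4475 to 4993 CPM against 7169 to 7909 CPM. Of 6 markers of double-positive or mature T cells, 3 were called higher and 2 lower, with a summed level of 126 to 145 CPM against 62.7 to 71.3 CPM. Of 10 proliferation markers, 2 were called lower, with 4112 to 4914 CPM in sum against 4941 to 5111 CPM. Myeloid markers summed to 24.4 to 25.8 CPM against 18.1 to 24.2 CPM, with 2 of 6 tested called higher and 1 lower, and B cell markers to 22.9 to 29.2 CPM against 38.2 to 43.1 CPM, with 1 of 6 called lower. Stroma markers summed to 432 to 497 CPM against 266 to 277 CPM, and of 4 tested Pdgfrb (1.75) and Pecam1 (0.48) were called higher and Epcam (-1.46) lower. The part of these in the result was not tested.

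The same comparison could be made among mice without p21, in libraries that the first did not use, although all 9 libraries share an estimate of the spread. Against p21-/- cells, all 8 genes had a negative log2 fold change in Lmo2Tg;p21-/- cells and 5 were called, all lower, where 30.7% of all genes tested passed in either direction and 14.4% as lower. The median was -0.46, beside -0.0043 over all genes tested. The called genes were Fdft1 (-0.54, adjusted p = 0.0032), Idi1 (-0.51, adjusted p = 0.0072), Sqle (-0.50, adjusted p = 0.0046), Lss (-0.41, adjusted p = 0.010) and Hmgcs1 (-0.29, adjusted p = 0.047). Fdps had a log2 fold change of -0.50 (adjusted p = 0.16), Insig1 of -0.23 (adjusted p = 0.12) and Srebf2 of -0.07 (adjusted p = 0.58).

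The calls of Sqle and Fdft1 held without each library in turn. That of Hmgcs1 was lost without p21-/- replicate 1 (adjusted p = 0.21), p21-/- replicate 2 (0.085) or Lmo2Tg;p21-/- replicate 1 (0.30), that of Lss without p21-/- replicate 1 (0.088) or Lmo2Tg;p21-/- replicate 1 (0.086), and that of Idi1 without Lmo2Tg;p21-/- replicate 1 (0.072). Insig1 was called lower without Lmo2Tg;p21-/- replicate 2 (-0.39, adjusted p = 0.034).

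In this comparison 7 of 13 sterol enzymes and 2 of 7 mevalonate enzymes were called lower, with medians of -0.43 and -0.32. Tm7sf2 (-0.88), Nsdhl (-0.56), Cyp51 (-0.52), the lanosterol demethylase, and Dhcr7 (-0.48) had the largest log2 fold changes among the sterol enzymes outside the 8 genes, and Lbr was again the gene that rose (0.33, adjusted p = 0.0080). Scarb1 (-0.93, adjusted p = 3.1e-05) and Soat1 (-1.17, adjusted p = 0.000105) were lower, and Mylip (1.40, adjusted p = 2.4e-05), Abca1 (1.82, adjusted p = 2.3e-05) and Soat2 (2.13, adjusted p = 0.0013) higher. Insig2, the homologue of Insig1, was called higher (0.87, adjusted p = 0.0010). DN3 markers moved here too, with 7 of 8 called lower and a summed level of 4534 to 4843 CPM against 6985 to 7529 CPM, as did 9 of 10 proliferation markers, with 3353 to 4392 CPM against 5160 to 5735 CPM. Of other cell types, 3 of 6 markers of double-positive or mature T cells were called higher and 1 lower (113 to 134 CPM in sum against 51.1 to 75.0 CPM), 3 of 6 myeloid markers tested were called higher (27.8 to 36.95 CPM against 25.3 to 26.5 CPM), and of 4 stroma markers tested 2 were called higher and 1 lower (475 to 650 CPM against 258 to 259 CPM). Their part in the result was not tested.

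Loss of p21 without the transgene gave no detectable difference in the 8 genes. In p21-/- against wild-type cells none was called by edgeR's quasi-likelihood test, with DESeq2 or with limma-voom, none had an unadjusted p under 0.05, and 0.11% of all genes tested passed. Of the 8 genes Srebf2 was the one whose libraries did not overlap, at 378 and 385 CPM in p21-/- and at most 377 CPM in wild-type cells. The share of all genes without overlap was not computed, so this order is only a description of the libraries. Log2 fold changes lay between -0.15 for Fdps and 0.05 for Idi1. The 95% intervals of the 7 genes other than Fdps lay within -0.32 and 0.28, and that of Fdps ran from -0.64 to 0.34, so changes of the size seen with the transgene lay outside the intervals of Hmgcs1, Idi1, Fdft1, Sqle and Lss.

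**Figure D3:**
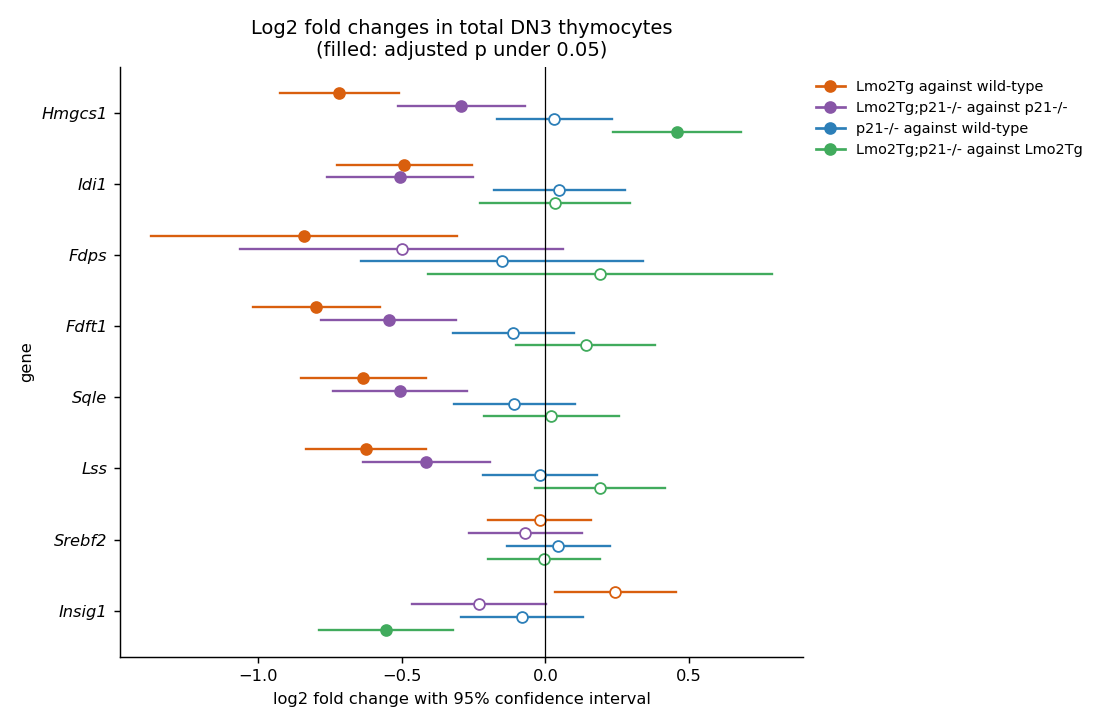
Log2 fold change (x axis) with 95% confidence interval of each gene (y axis) in 4 comparisons of total DN3 cells, filled where the adjusted p was under 0.05. In the 2 comparisons with and without the transgene (orange and purple) the points of the 6 enzymes lie left of 0. Their intervals do too, except that of Fdps in Lmo2Tg;p21-/- against p21-/- cells, which runs from -1.06 to 0.06. The p21-/- against wild-type intervals (blue) cross 0 for all 8 genes. In Lmo2Tg;p21-/- against Lmo2Tg cells (green) Hmgcs1 lies right and Insig1 left of 0.

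Loss of p21 in Lmo2Tg cells, in libraries shared with the comparisons above, moved 2 of the 8 genes, where 6.94% of all genes tested passed. Hmgcs1 was higher in Lmo2Tg;p21-/- than in Lmo2Tg cells, with 127 ± 15.1 CPM (SD, n = 2) against 92.7 ± 7.65 CPM (SD, n = 2) and a log2 fold change of 0.46 (SE 0.10, adjusted p = 0.026). Insig1 was lower, with 37.1 ± 5.10 CPM (SD, n = 2) against 54.6 ± 0.914 CPM (SD, n = 2) and a log2 fold change of -0.55 (SE 0.11, adjusted p = 0.015). Both calls rested on the spread shared by the 4 genotypes. With only the 4 libraries compared, the adjusted p was 0.085 for Hmgcs1 and 0.056 for Insig1.

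Neither call held through the loss of each library. Hmgcs1 was not called without Lmo2Tg library B (adjusted p = 0.16), Lmo2Tg;p21-/- replicate 1 (0.060) or Lmo2Tg;p21-/- replicate 2 (0.12), and Insig1 was not called without Lmo2Tg library A (0.051), Lmo2Tg library B (0.059) or Lmo2Tg;p21-/- replicate 1 (0.12). The other 6 genes had log2 fold changes between -0.0043 (Srebf2) and 0.19 and were not called. Outside the 8 genes, Msmo1 (0.72, adjusted p = 0.042), Insig2 (0.66, adjusted p = 0.023) and Lipa, the lysosomal lipase that frees cholesterol from its esters (0.39, adjusted p = 0.026), were called higher. No proliferation or DN3 marker was called, and all 10 proliferation markers had a negative log2 fold change. The myeloid marker Lyz2 (1.38, adjusted p = 0.0031) and Ccr7, a marker of mature T cells (1.24, adjusted p = 0.032), were called higher, and their part in the result was not tested.

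Whether the effect of p21 loss differed with the transgene was tested as the interaction of the 2 factors. None of the 8 genes passed by edgeR, DESeq2 or limma-voom, where 1.38% of all genes tested passed by edgeR, and 2 had an unadjusted p under 0.05. These were Hmgcs1 (interaction 0.43 on the log2 scale, SE 0.14, adjusted p = 0.14) and Insig1 (-0.47, SE 0.14, adjusted p = 0.13). Hence the calls made in Lmo2Tg cells and not in wild-type cells were not shown to differ between these backgrounds.

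Other genes followed the 8 across the genotype libraries. Ranked by the Pearson correlation of log2 CPM with the mean standardised level of the 8 genes over 9 libraries, the leading genes of 8756 were Card10 (0.986), Trappc12 (0.985), Cnot2 (0.985) and Champ1 (0.984). Of the synthesis enzymes, Nsdhl ranked highest (rank 11, 0.970), and Lbr was near the other end (rank 8507, -0.924). The libraries fall into 4 genotypes, so these correlations describe which genes share the difference between the groups.

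GFPhi and GFPlo cells, both transgenic, differed in Sqle and Srebf2. These 2 of the 8 genes were called, both lower in GFPhi cells, where 14.9% of the 11581 genes tested passed in either direction and 9.49% as lower. The median log2 fold change of the 8 was 0.03, beside 0.02 over all genes tested. Both called genes lie on chromosome 15, and the other 6 do not.

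Sqle stood at 109, 121 and 129 CPM in GFPlo and at 86.8, 84.3 and 76.5 CPM in GFPhi libraries. The groups did not overlap, and the log2 fold change was -0.53 (SE 0.08, adjusted p = 0.014). Srebf2 stood at 630.2, 618 and 586 CPM in GFPlo and at 442, 440.1 and 476 CPM in GFPhi libraries, again without overlap, with a log2 fold change of -0.43 (SE 0.06, adjusted p = 0.011). How many of all genes did not overlap between GFPhi and GFPlo libraries was not computed. Over the 464 genes of chromosome 15 that were tested the median log2 fold change was -0.43, 90.3% were lower in GFPhi cells and 47.2% were called lower, beside a median of 0.03 over genes of all other chromosomes. Sqle lay 0.10 below the median of its chromosome and Srebf2 at it (a difference of 0.00). In Lmo2Tg against wild-type cells the median of chromosome 15 was 0.13, and Sqle lay on the other side of it (-0.63).

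**Figure D4:**
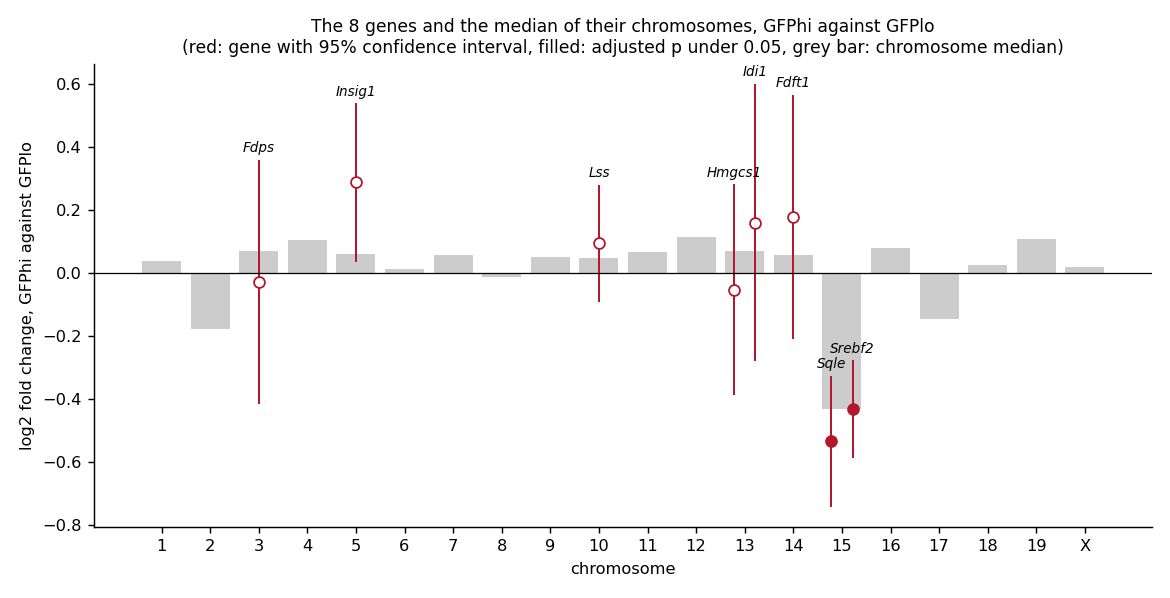
Log2 fold change of GFPhi against GFPlo cells (y axis) by chromosome (x axis). Grey bars are the median over all genes tested on a chromosome, and red points are the 8 genes with their 95% confidence intervals, filled where the adjusted p was under 0.05. Sqle (-0.53) and Srebf2 (-0.43) lie near the bar of chromosome 15 (-0.43), and the intervals of the other genes except Insig1 cross 0.

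The calls on chromosome 15 depended on single libraries. Without GFPlo replicate 2 neither was called (adjusted p = 0.081 for Sqle and 0.079 for Srebf2), without GFPlo replicate 3 Sqle was not (0.055), and without GFPhi replicate 1 Srebf2 was not (0.055). With the replicate number as a block the adjusted p was 0.076 for Sqle and 0.065 for Srebf2. Their log2 fold changes hardly moved under these alternatives, from -0.59 to -0.48 for Sqle and from -0.46 to -0.41 for Srebf2 without each library in turn.

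Insig1 was at 40.8, 37.8 and 40.1 CPM in GFPlo and at 51.0, 52.2 and 41.6 CPM in GFPhi libraries. All GFPhi libraries were higher, the third by a small margin, and the log2 fold change of 0.29 did not pass (SE 0.10, adjusted p = 0.11). Fdft1 stood at 27.6, 24.3 and 27.2 CPM in GFPlo and at 34.3, 31.8 and 23.3 CPM in GFPhi libraries (0.18, adjusted p = 0.47). In both genes GFPhi replicate 3 was the lowest GFPhi library. Without it, 4 of the 8 genes were called, where 41.3% of all genes tested were, with Insig1 (0.39, adjusted p = 0.0034) and Fdft1 (0.33, adjusted p = 0.019) higher in GFPhi cells beside Sqle and Srebf2 lower. Ctsb, antisense to Fdft1, had 6140, 6261 and 4102 counts in GFPhi and 4907, 4790 and 5413 counts in GFPlo libraries, with replicate 3 again the lowest GFPhi library, and its part in the value of Fdft1 was not tested.

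**Figure D5:**
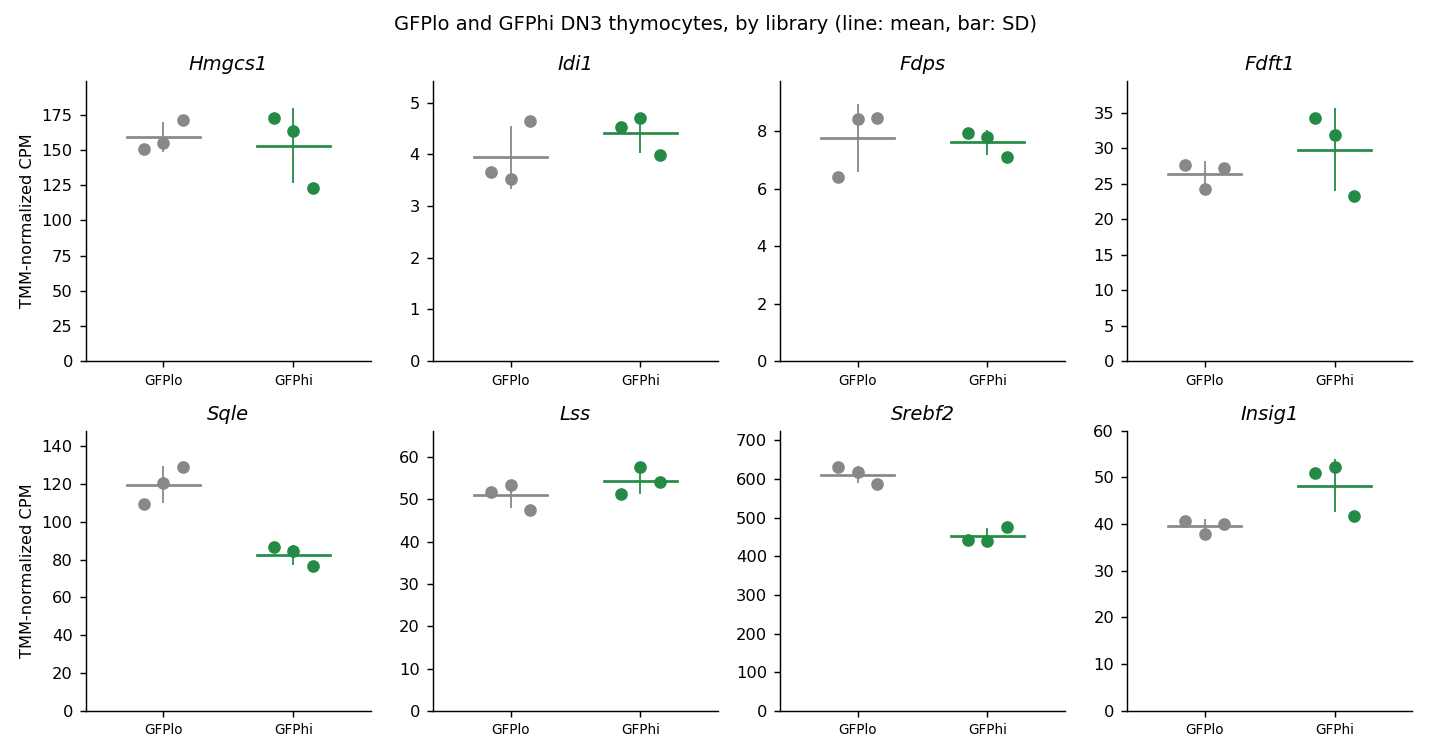
TMM-normalized CPM (y axis, linear from 0, own scale for each gene) of the 8 genes in GFPlo and GFPhi DN3 cells (x axis). Points are libraries in the order of their replicate numbers, lines are means and bars are SD. Sqle and Srebf2 are lower in all 3 GFPhi libraries, Insig1 is higher in all 3, and the groups overlap in the other 5 genes. The share of all genes without overlap was not computed, so this is a description of the libraries.

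In Hmgcs1, GFPhi libraries held 173, 164 and 123 CPM and GFPlo libraries 151, 155 and 171 CPM, so the groups overlapped (log2 fold change -0.05, interval from -0.39 to 0.28). Lss (0.09), Idi1 (0.16) and Fdps (-0.03) also overlapped between the groups and were not called. Idi1 stood near 4 CPM here, from 3.53 to 4.71 CPM. This level cannot be set against the genotype experiment, because the tables were made separately and name different counting settings. Exons of Idi1 also overlap an antisense gene. Of 19 synthesis enzymes off chromosome 15 none was called with all libraries, and their median log2 fold change was 0.10. This count was not computed without GFPhi replicate 3, where Fdft1, which is among them, was called higher. The mevalonate enzymes summed to 290, 286 and 210 CPM in GFPhi libraries and 260 to 280 CPM in GFPlo libraries. The sterol enzymes, Sqle included, summed to 1578, 1566 and 1292 CPM against 1404 to 1412 CPM. In both sums GFPhi replicate 3 was the lowest library.

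Of the wider pathway, Scarb1 fell by 0.52 (adjusted p = 0.020), Soat1 by 0.45 (adjusted p = 0.023), Srebf1 by 0.38 (adjusted p = 0.027) and Soat2, on chromosome 15, by 1.47 (adjusted p = 0.014) on the log2 scale in GFPhi cells. Markers of B cells were higher in GFPhi libraries, with 5 of 8 called and a summed level of 44.98 to 125 CPM against 25.3 to 28.8 CPM, and Ms4a1 and Pax5 had at most 3 counts in a GFPlo library. The 10 proliferation markers all had negative log2 fold changes and none was called, with 2934 to 4685 CPM in sum against 3955 to 5505 CPM. The part of these markers in the differences was not tested.

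By the same measure of likeness over the 6 GFP libraries, the leading genes of 8801 were Hsp90ab1, Cdc25a, Smu1, Skiv2l2 and Tank, with correlations from 0.995 to 0.999. Of the synthesis enzymes Cyp51 ranked highest (rank 19, 0.986). With 6 libraries in 2 groups, 1 of which stands apart, such values are a description of these libraries.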

How the data were processed

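Poly-A RNA of sorted DN3 thymocytes was sequenced. For each experiment the authors deposited a table of read counts, whole numbers for protein-coding genes with no normalization. The submitters' processing notes name STAR 2.4.2a, featureCounts, limma and mm10, without their roles. The table names give different counting settings (Reverse for GFP, No for genotypes), and whether strand was used is not given in the sources used here, so reads shared with an overlapping gene cannot be assigned and levels were not compared between experiments.

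Groups came from the sample labels, except that both Lmo2Tg columns were placed by the group letter in their names. The same names are also descriptions of GFPlo samples, so these columns were not tied to single samples. Of 16 labelled samples 15 libraries had a usable column. One more column of the genotypes (1 in all) matched no label and was not used, and 1 p21-/- sample was not analysed here. The paper gives 3 independent cohorts for the GFP libraries. For the genotypes the sources used here do not say that libraries came from separate mice, so those p-values measure only the spread between these libraries, which may be technical.

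Genes with low counts were left out (filterByExpr, minimum count 10, minimum total 15) and libraries were scaled by TMM in edgeR 4.0.16 (R 4.3.3). GFPhi was tested against GFPlo in 6 libraries, and all genotype comparisons came from 1 model over 9 libraries. Calls are quasi-likelihood tests of edgeR at a Benjamini-Hochberg adjusted p under 0.05 over all genes tested. SEs were taken from the F statistic, and intervals are 95%. Exon lengths and positions came from GENCODE M21 (GRCm38), which held 98.2% of the gene identifiers.

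Alternatives were the scaling (RLE, or without chromosomes 2 and 15), the test (DESeq2 1.42.0, limma 3.58.1 with voom), no filter, the study's 2-fold thresholds, only the groups compared, the replicate number as a block, and fits without each library. The scripts were checked on simulated counts. The 8 genes and the gene lists were chosen with earlier results of these data known. Of the other genes in a pathway list, up to 4 called genes with the largest log2 fold change were named per comparison, and Lbr, named outside that rule in Lmo2Tg against wild-type and Lmo2Tg;p21-/- against p21-/-, was chosen after its values were seen. Some genes of the pathway lists are not reported here, and the counts and medians of those lists leave them out. Deviations of GFPhi and GFPlo libraries with the same number correlated by 0.070, -0.079 and 0.099 across genes, so the numbers were not taken to pair them.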

Additional observations from a re-analysis of the deposited data

Results flagged for a closer look

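The Insig1 values of libraries with and without the Lmo2 transgene lay in opposite orders with and without p21, and no test of this passed. With p21 present, both Lmo2Tg libraries (55.2 and 54.0 CPM) lay above all 3 wild-type libraries (44.0 to 49.3 CPM), a log2 fold change of 0.24 (adjusted p = 0.067). Without p21, both Lmo2Tg;p21-/- libraries (33.5 and 40.8 CPM) lay below both p21-/- libraries (42.8 and 44.5 CPM), a log2 fold change of -0.23 (adjusted p = 0.12). The difference between these responses was tested as the interaction and did not pass (-0.47 on the log2 scale, adjusted p = 0.13 in edgeR's quasi-likelihood test), so the opposite order of the libraries is a description. The other 7 genes did not show it, and the share of all genes with such an order was not computed.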

How the results depend on the processing

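The 15 called log2 fold changes of the 8 genes kept their direction in all 152 recomputations, and 25 of these, 20 of them with a library left out, no longer passed. At the study's threshold of over 2-fold 0 of the 8 genes were called in any comparison, and since none reached 2-fold this holds at an FDR of 0.01 as at 0.05, both of which the study names for Lmo2Tg;p21-/- against Lmo2Tg. The count of 2 in GFPhi against GFPlo became 0 with the replicate block, where calls among all genes fell from 1721 to 496, and ranged from 0 to 4 without each library. RLE size factors, DESeq2, limma-voom, no filter and chromosomes 2 and 15 left out of the scaling each gave 2. In Lmo2Tg against wild-type the count of 6 ranged from 5 to 6 without each library. In Lmo2Tg;p21-/- against Lmo2Tg the count of 2 became 0 with only the groups compared and ranged from 0 to 1 without each library. In Lmo2Tg;p21-/- against p21-/- the count of 5 ranged from 2 to 6 without each library, and was 5 with the replicate block and 4 with only the groups compared. The p21-/- against wild-type comparison and the interaction gave 0 throughout, the former with the replicate block too. The replicate block changed no other call, and same-numbered libraries were not taken as pairs. No paired analysis was possible because the columns carry no usable number for the comparisons with Lmo2Tg. Reversals were confined to log2 fold changes that were not called. For Srebf2 in Lmo2Tg;p21-/- against Lmo2Tg the value was 0.00018 with limma-voom and 0.0025 with no filter. Without each library, log2 fold changes that crossed 0 ranged in GFPhi against GFPlo from -0.14 to 0.087 for Hmgcs1 and from -0.15 to 0.040 for Fdps. In p21-/- against wild-type they ranged from -0.034 to 0.088 for Hmgcs1 and from -0.14 to 0.089 for Lss, and in Lmo2Tg against wild-type from -0.14 to 0.092 for Srebf2. In Lmo2Tg;p21-/- against Lmo2Tg they ranged from -0.087 to 0.13 for Sqle, -0.12 to 0.16 for Idi1, -0.15 to 0.61 for Fdps and -0.12 to 0.11 for Srebf2, and in the interaction from -0.17 to 0.11 for Idi1 and -0.16 to 0.071 for Srebf2. The cause was not tested. Over all genes, calls without each library ranged from 273 to 4848 in GFPhi against GFPlo, 60 to 514 (822 with all) in Lmo2Tg;p21-/- against Lmo2Tg, 1914 to 3179 in Lmo2Tg;p21-/- against p21-/-, 2815 to 3836 in Lmo2Tg against wild-type, 8 to 18 in p21-/- against wild-type and 0 to 449 in the interaction. DESeq2 gave 2912 in GFPhi against GFPlo, 20 (13 in the test reported) in p21-/- against wild-type and 459 (163) in the interaction, no filter gave 21 and 520 in the latter comparisons, and only the groups compared gave 404 in Lmo2Tg;p21-/- against Lmo2Tg. Where a group of 2 lost a library, the other was assumed to vary like the remaining groups. Counts of 35 to 104 reads limit Fdps in the genotype libraries.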

Other observations

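Genes of fatty acid synthesis are controlled largely by SREBP-1. In Lmo2Tg against wild-type cells 5 of 9 tested were called lower and none higher, beside 16.9% of all genes called lower, with a median log2 fold change of -0.43, and the other 4 (Acly, Elovl6, Acss2 and Scd1) did not pass. Fads1 and Fads2, which desaturate polyunsaturated fatty acids, had log2 fold changes of -0.67 (adjusted p = 9.0e-05) and -0.43 (adjusted p = 0.00076). Acaca, the acetyl-CoA carboxylase of the first committed step, had -0.66 (adjusted p = 0.0019) and Scd2, a stearoyl-CoA desaturase, -0.49 (adjusted p = 0.0023). In Lmo2Tg;p21-/- against p21-/- cells 4 genes of this list were called lower and Elovl6, a fatty acid elongase, higher (0.47, adjusted p = 0.014). In GFPhi against GFPlo cells none was called.

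Of 10 enzymes that use isoprenoids outside the sterol pathway 2 were called lower in Lmo2Tg against wild-type cells, close to the 16.9% of all genes. They were Ggps1, the geranylgeranyl pyrophosphate synthase (-0.32, adjusted p = 0.019), and Dhdds, which makes dolichol precursors (-0.29, adjusted p = 0.033), and the median of the list was -0.17. None was called in Lmo2Tg;p21-/- against p21-/- cells. Ggps1 was called higher in Lmo2Tg;p21-/- against Lmo2Tg cells (0.43, adjusted p = 0.030), and Rabggtb, a subunit of a Rab prenyltransferase, was called higher in GFPhi against GFPlo cells (0.28, adjusted p = 0.049).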
